A study of Homo sapiens with 3 samples.

Results

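The SLC25A family of carriers and the protein import machinery of mitochondria were followed in BEAS-2B, a human bronchial epithelial line that grows without limit in culture, after MTX and after its vehicle DMSO. Members were genes whose single symbol begins with SLC25A, TIMM, TOMM, PMPC or MFN, apart from SLC25A32, and that had at least 1 probe with values on 2 or more of the 3 arrays. This gave 61 of the 11741 genes tested, 34 on the carrier side and 27 on the import side. MTX was given at 0.144 µM, stated to be the concentration of 20% inhibition, for 48 h after cells had been kept for 24 h, and each two-colour array held RNA of MTX cells in Cy5 and RNA of DMSO cells in Cy3. Each array is therefore 1 ratio, no array had the dyes exchanged, and a dye effect of a gene cannot be told apart from a difference between MTX and DMSO.

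The letters of the symbols also took in 3 genes that are neither carriers nor import genes nor mitofusins. SLC25A5-AS1 is a long non-coding RNA, SLC25A51P1 a transcribed pseudogene, and MFNG a Golgi glycosyltransferase of the fringe family. None of the 3 passed the test, with mean log ratios of 0.0201, 0.0562 and 0.0136, and they are kept in the counts. MFN1 and MFN2, the mitofusins, fuse outer membranes, and TIMMDC1 assembles respiratory complex I. These 3 do not import proteins either but are counted on the import side by their symbols. SLC25A17, a carrier of the peroxisomal membrane, is counted on the carrier side by its symbol as well. A further 9 symbols, among them SLC25A10, SLC25A30, SLC25A31 and TOMM34, had values on 1 array at most and were not tested. SLC25A3, SLC25A6 and TIMM44 were not analysed here.

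Mitochondrial carriers are small proteins of the inner membrane that exchange nucleotides, phosphate, carboxylates, amino acids and cofactors between the cytosol and the matrix. They are made on cytosolic ribosomes, as are nearly all mitochondrial proteins, and enter through the outer membrane translocase TOM. Carriers are then handed by the small Tim chaperones of the intermembrane space to the TIM22 complex, whereas precursors with a cleavable presequence pass through the TIM23 complex and are trimmed by the matrix processing peptidase.

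Values are log ratios of MTX over DMSO in the units deposited by the authors. A positive value is read as higher with MTX, a direction that is likely rather than settled, because it rests on the labelled dyes and the usual order of Cy5 over Cy3. No source gives the logarithm's base, and folds are therefore printed for base 10 and for base 2. Each gene's mean was tested against 0 with limma over all 11741 genes, and a gene was called at a Benjamini-Hochberg adjusted p under 0.05. Whether each array had its own culture is not labelled, so p-values reflect variation among 3 arrays that could be purely technical. Arrays 1 and 2 resembled each other (Pearson r = 0.850 across probes) more than either resembled array 3 (r = 0.508 and 0.521). Without array 1, and likewise without array 2, limma called 0 genes of any kind, and 15 and 12 members had an unadjusted p below 0.05. The 15 were among 31 carriers and 26 import genes, beside 2798 of 10823 genes. The 12 were among 26 carriers and 25 import genes, beside 2340 of 9829 genes. With array 3 left out the number called was 4579. Ratios hold no level of a transcript, so the labelled cell type could not be set against its markers.

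In the fit on all 3 arrays, fewer carriers than import genes were called. Of 34 carrier symbols 2 rose with MTX, among them the peroxisomal SLC25A17, and 0 fell. Of 27 import symbols 3 rose and 4 fell. Over all genes 13.9% were called, 8.16% higher and 5.75% lower. The carriers' share, 5.88%, lay below that background and the import genes' share, 25.9%, above it. The difference between both sides was not tested, and its order turned in 2 other fits. With array weights 19 of 34 carriers (55.9%) and 14 of 27 import genes (51.9%) were called, beside 49.3% of all genes. Without array 3 they were 12 of 25 carriers (48.0%) and 10 of 26 import genes (38.5%), beside 45.9% of all genes. At an unadjusted limma p under 0.05 there were 6 higher and 9 lower carriers, and 4 higher and 7 lower import genes. These were 15 of 34 carriers and 11 of 27 import genes, beside 4336 of all 11741 genes. By this count the share was larger for carriers. The median of the gene means was 0.0181 for carriers, -0.0380 for import genes and 0.00601 for all genes. Array by array the carrier median was -0.00503, 0.00479 and 0.0226 on arrays 1 to 3. The import median was -0.0305, -0.0250 and -0.0123, below 0 and below the carrier median on each array. Means were below 0 for 15 of 34 carriers and 18 of 27 import genes, against 5588 of all 11741 genes. Values on only 2 arrays were held by 10 of 34 carriers and 2 of 27 import genes, beside 2253 of all 11741 genes. Of these members 0 were called. The called share among all genes on 2 arrays was not counted, so this 0 has no background to be read against. When only probes with values on all 3 arrays were averaged, 29.0% of 9394 genes were called. Among them were 3 carriers higher and 3 lower of 24 (25%), and 3 import genes higher and 5 lower of 25 (32%). The carriers added there were SLC25A46, higher, and SLC25A28, SLC25A29 and SLC25A43, lower, and the import gene added was TIMM17B, lower. Among these added genes only SLC25A43 had a mean that differed from the main fit.

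**Figure D1:**
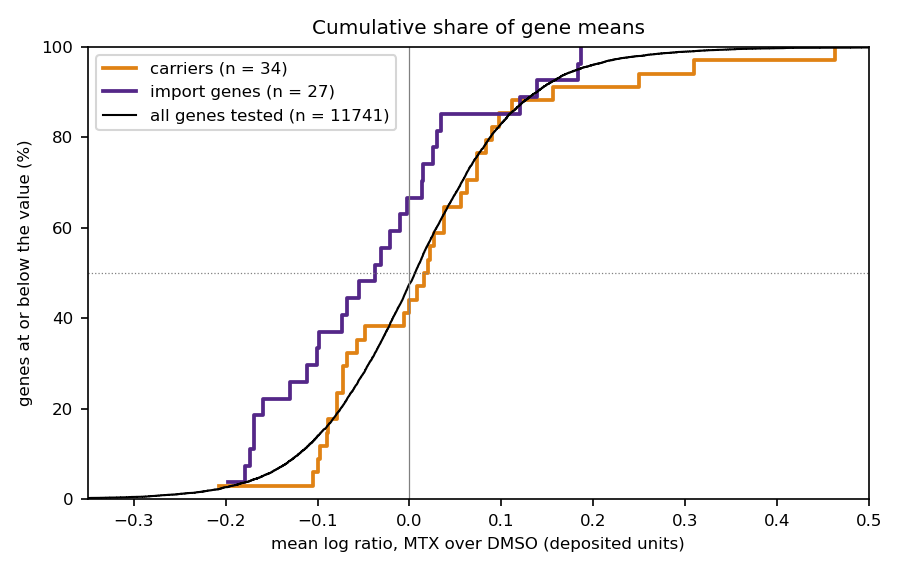
Cumulative share of gene means (vertical axis, %) against the mean log ratio of MTX over DMSO in deposited units (horizontal axis) for 34 carrier symbols, 27 import symbols and all 11741 genes tested. The import curve crosses 50% at -0.0380, and the carrier curve crosses it near the curve of all genes.

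The stretches of 250 bases before the gene start are shown for called members that held a searched motif there, since these are the members the results turn on. They come from RefSeq, build GRCh38.p14, which lists a start for 54 of the 61 members. Searched on both strands were an exact form of the ETS motif, CCGGAAG, and the cyclic AMP response element TGACGTCA. Other forms of either motif were not searched. A match is marked in capitals on the gene's own strand, and the motifs do not overlap in these stretches.
TIMM13, which fell, and TOMM70 and SLC25A17, which rose, held this ETS form.
TIMM13, chr19:2427587-2427836, minus strand: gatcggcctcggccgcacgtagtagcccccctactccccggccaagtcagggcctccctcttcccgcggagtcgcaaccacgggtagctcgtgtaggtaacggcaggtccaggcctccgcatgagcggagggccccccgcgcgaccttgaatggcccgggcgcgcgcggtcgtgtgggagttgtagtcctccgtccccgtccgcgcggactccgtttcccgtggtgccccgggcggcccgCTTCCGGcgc
TOMM70, chr3:100401090-100401339, minus strand: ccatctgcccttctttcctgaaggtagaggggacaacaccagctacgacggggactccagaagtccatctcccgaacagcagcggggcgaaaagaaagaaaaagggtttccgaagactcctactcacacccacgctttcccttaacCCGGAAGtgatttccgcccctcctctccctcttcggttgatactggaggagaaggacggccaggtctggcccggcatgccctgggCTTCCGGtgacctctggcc
SLC25A17, chr22:40819347-40819596, minus strand: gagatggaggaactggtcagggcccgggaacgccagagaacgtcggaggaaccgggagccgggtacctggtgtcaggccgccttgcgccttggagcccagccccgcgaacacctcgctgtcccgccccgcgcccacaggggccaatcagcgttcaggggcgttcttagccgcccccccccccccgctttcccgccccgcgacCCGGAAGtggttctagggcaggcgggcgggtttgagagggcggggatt
SLC25A25, which rose, has 3 listed starts. The one shown holds a cyclic AMP response element, another held the ETS form.
SLC25A25, chr9:128098257-128098506, plus strand: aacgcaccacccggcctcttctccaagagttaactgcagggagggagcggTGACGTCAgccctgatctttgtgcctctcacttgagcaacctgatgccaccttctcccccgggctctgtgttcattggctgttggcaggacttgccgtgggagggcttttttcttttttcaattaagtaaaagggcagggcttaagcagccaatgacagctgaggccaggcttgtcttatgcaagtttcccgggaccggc

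Over all 35116 listed stretches of this length, 8.52% held the ETS form and 1.65% the cyclic AMP response element. Of the 24 stretches of import genes, 10 held the ETS form and 0 the response element. Of the 39 stretches of carriers, 8 held the ETS form and 3 the response element. The 35116 stretches belong to 27305 genes, many of them not tested on these arrays. Stretches of the tested genes were not counted apart, so whether members differ from those was not tested. TOMM40 and TOMM7, which fell, and TIMM17A and MFN2, which rose, held neither exact run of letters in their listed stretch. TIMM8B, which fell, has no listed start, so no stretch of it was searched. The ETS form stood before genes that rose and genes that fell. These matches describe the letters, and binding was not measured.

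Among carriers of nucleotides, phosphate and cofactors, 2 of 12 rose and 0 fell, beside 8.16% higher and 5.75% lower of all genes. SLC25A17, a carrier of the peroxisomal membrane that takes coenzyme A, FAD and NAD, had 0.218, 0.406 and 0.306 on arrays 1 to 3. All 3 arrays were above 0 and spread widely. Its mean of 0.310 ± 0.0937 (SD, n = 3) is 2.04-fold for base 10 and 1.24-fold for base 2, with a 95% interval from 0.198 to 0.422 and a limma adjusted p of 0.0287. Of all genes, 1.33% had a mean at least as far from 0 in either direction. For the other called members this share was larger, from 3.13% for SLC25A25 to 17.3% for TOMM70.

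SLC25A25, a calcium-regulated carrier that exchanges ATP-magnesium for phosphate, had 0.209, 0.267 and 0.273. The 3 arrays were close together. The mean was 0.250 ± 0.0355 (SD, n = 3), 1.78-fold for base 10 and 1.19-fold for base 2, with a 95% interval from 0.182 to 0.317 and a limma adjusted p of 0.0257. Its relatives with the same substrates read lower. SLC25A24 had 0.0307, 0.0529 and 0.0278 and did not pass (adjusted p = 0.283, limma), and SLC25A23, without a value on array 1, had -0.115 and -0.2998 (adjusted p = 0.101, limma). SLC25A25 exceeded SLC25A24 by 0.213 ± 0.0337 (SD, n = 3) and on 3 of 3 arrays, and SLC25A23 by 0.382 and 0.573 on arrays 2 and 3. These pairs were picked with results known, and their differences were not tested.

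The ADP/ATP exchangers of the inner membrane did not pass. SLC25A4, the isoform of heart and muscle, had 0.227 on array 1, against 0.0480 and 0.0182 on arrays 2 and 3. SLC25A5, the isoform of proliferating cells, had -0.104, -0.0613 and -0.0525 as the average of 5 probes, with an adjusted p of 0.107 (limma). The 5 probes of SLC25A5 had means from -0.197 to 0.0297. Of these, 2 passed as lower in the limma fit of single probes, in which 17.1% of all 23239 probes were called. The average of SLC25A5 therefore joins probes that read differently, and whether each is specific to SLC25A5 was not tested.

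SLC25A51, the NAD carrier of the inner membrane, had 0.168, 0.146 and 0.0226 (adjusted p = 0.108, limma), and 1 of its 2 probes passed as higher. SLC25A52, its close paralogue, had -0.0923 and -0.103 on arrays 2 and 3. The related pseudogene SLC25A51P1 had 0.0591, -0.000607 and 0.110. Whether the probes tell these 3 sequences apart was not tested. The pyrimidine nucleotide carriers SLC25A33 and SLC25A36 averaged -0.0790 and -0.0726, with SLC25A33 above 0 on array 3 and SLC25A36 below 0 on all 3. SLC25A16 averaged 0.0895 ± 0.0428 (SD, n = 3, limma adjusted p = 0.0919) and SLC25A42, a coenzyme A carrier, had -0.0230 and 0.0405 on arrays 1 and 3.

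None of the 13 carriers of carboxylates, amino acids and carnitine passed, beside 13.9% of all genes. An unadjusted p under 0.05 in limma was held by 3 of them, beside 4336 of all 11741 genes. SLC25A29, a carrier of basic amino acids, came nearest with -0.152, -0.105 and -0.0574 (adjusted p = 0.0733). Its 2 probes averaged -0.199 and -0.0108, and only the first passed by itself. SLC25A21, the oxodicarboxylate carrier, had the highest mean of all members, 0.463, from 0.753 on array 2 and 0.174 on array 3. Both values were above 0 but far apart, with a 95% interval from -0.00364 to 0.930 and an adjusted p of 0.137 (limma, 2 arrays). SLC25A20, which exchanges carnitine for acylcarnitines, had 0.270 and 0.0416 on the same arrays.

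The shuttle carriers had means on both sides of 0, and none of them passed. The aspartate-glutamate carrier SLC25A12 had 0.00912, 0.0472 and 0.0114. Its paralogue SLC25A13 had -0.0371 and -0.0158 on arrays 1 and 2 but 0.165 on array 3, so array 3 alone set its positive mean of 0.0374. SLC25A11, which exchanges oxoglutarate for malate, had -0.0619, -0.0258 and -0.212, and the citrate carrier SLC25A1 had -0.0275, -0.0625 and -0.0812 (limma adjusted p = 0.176 and 0.161). The glycine carrier SLC25A38, used in heme synthesis, averaged -0.0677 ± 0.0348 (SD, n = 3). The glutamate carrier SLC25A22 averaged 0.0628 ± 0.0185 and the ornithine carrier SLC25A15 had 0.0691 and 0.0771, both above 0 on every array with a value. SLC25A2, the other ornithine carrier, SLC25A44, a carrier of branched-chain amino acids, and SLC25A45 averaged -0.000591, -0.00591 and 0.0266.

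Of the remaining 9 SLC25A symbols 0 passed, beside 13.9% of all genes. At an unadjusted p under 0.05 in limma there were 4, beside 4336 of all 11741 genes. The mitoferrins SLC25A28 and SLC25A37, which bring iron into the matrix, averaged -0.0887 ± 0.00983 and -0.0785 ± 0.0174 (SD, n = 3, limma adjusted p = 0.0626 and 0.0822). Each was below 0 on all 3 arrays. With complete probes alone SLC25A37 averaged -0.0386 ± 0.0529 (limma adjusted p = 0.333) and was at 0.00552 on array 2. The probes of both genes disagreed. For SLC25A28 one probe averaged -0.204 and the other 0.0264, and for SLC25A37 the 4 probes ran from -0.249 to 0.0740, with the lowest lacking a value on array 3. The glutathione carriers SLC25A40 and SLC25A39 differed in evenness. SLC25A40 had -0.148, -0.0775 and -0.0436, whereas SLC25A39 had 0.191 on array 2 and -0.159 on array 3. SLC25A46, an outer membrane protein of the family, averaged 0.0835 ± 0.0246 (limma adjusted p = 0.0793), and SLC25A27, an uncoupling protein homologue, had 0.0846 and 0.0617 on arrays 1 and 2. SLC25A43 had -0.121, -0.0486 and 0.0263, but only 1 of its 2 probes had a value on array 1, so its arrays average different probes.

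**Figure D2:**
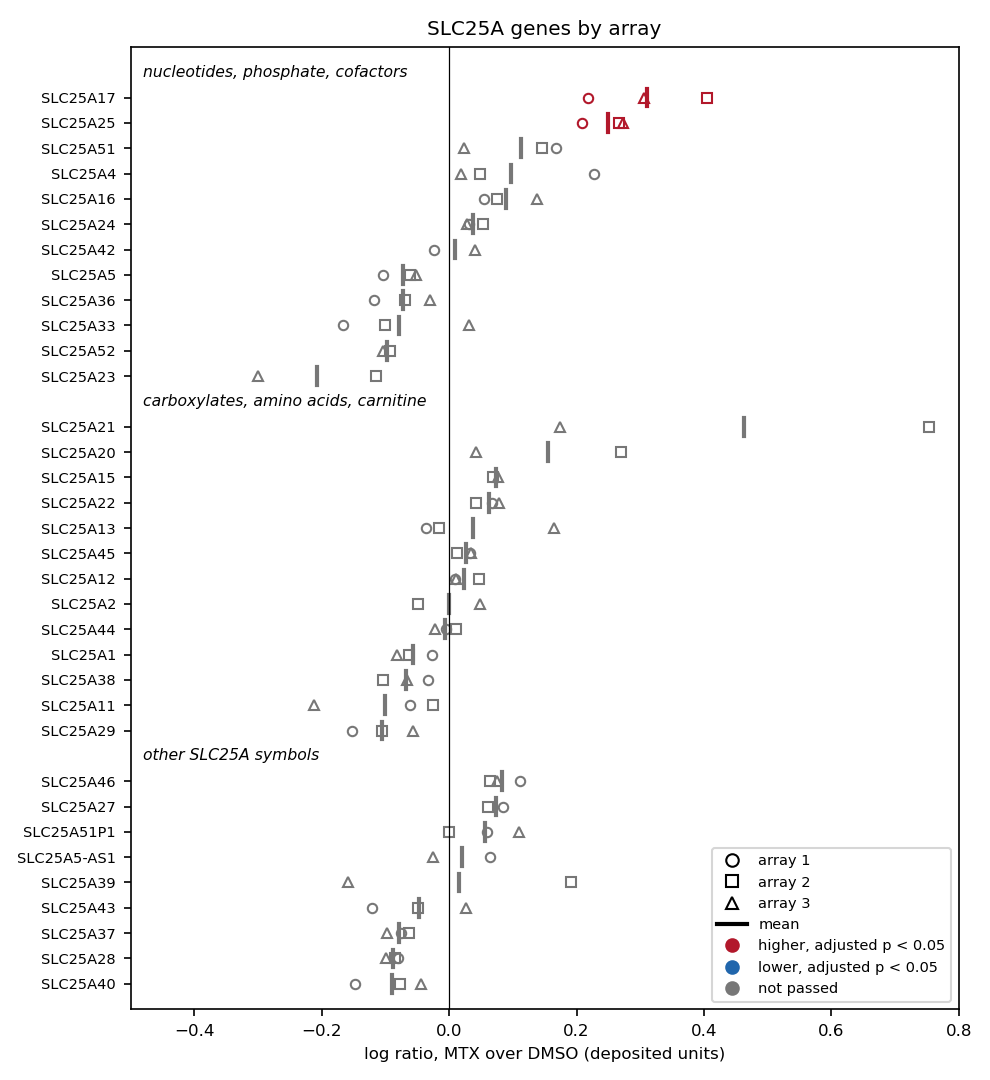
Log ratios of MTX over DMSO in deposited units (horizontal axis) for each SLC25A symbol tested, by substrate class, with 1 marker per array and a bar at the mean. SLC25A17 and SLC25A25, in red, are the 2 that passed, and SLC25A21 spans 0.174 to 0.753 on the 2 arrays that measured it.

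In the TOM complex 1 of 8 symbols rose, 2 fell and 5 did not pass, beside 8.16% higher and 5.75% lower of all genes. Members of the same complex moved in opposite directions. TOMM70, the receptor that takes up carrier precursors and other proteins with internal signals, had 0.165, 0.112 and 0.139. All 3 arrays were above 0. The mean was 0.138 ± 0.0265 (SD, n = 3), 1.38-fold for base 10 and 1.10-fold for base 2, with a 95% interval from 0.0756 to 0.201 and a limma adjusted p of 0.0369.

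TOMM40, the channel of the complex, had -0.160, -0.163 and -0.215, with no array near 0. Its mean of -0.179 ± 0.0309 (SD, n = 3) is 1.51-fold lower for base 10 and 1.13-fold lower for base 2, with a limma adjusted p of 0.0287, and 0.0550 after a local running median along the feature numbers was removed. TOMM7, a small subunit that tunes the assembly of the complex, had -0.164, -0.156 and -0.200. Its mean was -0.173 ± 0.0236 (SD, n = 3, limma adjusted p = 0.0285), 1.49-fold lower for base 10 and 1.13-fold lower for base 2. Both probes of TOMM7 passed by themselves, at -0.177 and -0.169. TOMM70 exceeded TOMM40 by 0.325, 0.275 and 0.354 on the 3 arrays, a pair picked with results known and not tested.

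The presequence receptors did not pass. TOMM20 had -0.00867, 0.00281 and -0.0244, the average of 1 probe below 0 on every array and 1 above 0 on every array. TOMM22 had -0.194 on array 1 and -0.0250 and -0.00302 on arrays 2 and 3, so that array 1 carried most of its mean. The small subunit TOMM5 averaged -0.0211 ± 0.0146 (SD, n = 3). The paralogues TOMM20L and TOMM40L had their lowest value on array 1 as well, at -0.294 and -0.243, against 0.00510 and -0.0545 on array 3. The median of the TOM genes was -0.162 on array 1, -0.0291 on array 2 and -0.0146 on array 3.

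Of 5 genes of the presequence translocase TIM23, 1 rose and 0 fell, beside 8.16% higher and 5.75% lower of all genes. TIMM17A, a channel subunit, had 0.203, 0.158 and 0.190. The values lay close together and well above 0. The mean was 0.183 ± 0.0228 (SD, n = 3), 1.53-fold for base 10 and 1.14-fold for base 2, with a 95% interval from 0.122 to 0.245 and a limma adjusted p of 0.0269.

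TIMM17B, the paralogue that takes the same place in other copies of the complex, went the other way without passing, with -0.0849, -0.115 and -0.192 (adjusted p = 0.0573, limma). With complete probes alone its values were the same, and it passed at an adjusted p of 0.0320 (limma). In that fit 29.0% of 9394 genes were called, against 13.9% in the main fit. TIMM17A exceeded TIMM17B by 0.287, 0.273 and 0.382 on arrays 1 to 3, so the ranges of the paralogues did not overlap. This difference was not tested. TIMM23, the partner channel subunit, had -0.0293, 0.0170 and 0.00395, with a 95% interval from -0.0645 to 0.0590. The receptor TIMM50 averaged -0.0307 ± 0.0181 and TIMM21, which docks the complex to TOM, 0.0301 ± 0.0259 (SD, n = 3).

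In the carrier translocase TIM22 and the small Tim chaperones, 0 of 8 genes rose and 2 fell, beside 8.16% and 5.75% of all genes. TIMM13 had -0.223, -0.176 and -0.193, the lowest mean among import genes. It averaged -0.197 ± 0.0235 (SD, n = 3), 1.58-fold lower for base 10 and 1.15-fold lower for base 2, with a limma adjusted p of 0.0262. TIMM8B, a small Tim related to TIMM8A, had -0.101, -0.212 and -0.194. Array 1 was about midway between 0 and the other arrays. Its mean of -0.169 ± 0.0597 (SD, n = 3) is 1.48-fold lower for base 10 and 1.12-fold lower for base 2, with an adjusted p of 0.0414 (limma).

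TIMM10B, the small Tim bound to the TIM22 complex, had -0.160 and -0.179 on arrays 2 and 3 and came next to the threshold with an adjusted p of 0.0514 (limma, 2 arrays). TIMM10 had -0.0590, -0.0610 and -0.182, and its chaperone partner TIMM9 had -0.0735, -0.0377 and -0.00271. TIMM8A, the usual partner of TIMM13, had 0.0277 and 0.0225 on arrays 1 and 2. TIMM8A exceeded TIMM8B by 0.129 and 0.234 on the arrays with both, which was not tested. Of the 6 small Tims 5 had negative means and 2 of those passed.

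The channel TIMM22 lay opposite to most of its chaperones, with 0.103, 0.196 and 0.0598 (adjusted p = 0.0835, limma). TIMM29, another subunit of the complex, had -0.299 on array 2 against -0.0316 and -0.00587 on arrays 1 and 3, so array 2 carried its mean. TIMMDC1, an assembly factor of respiratory complex I, averaged -0.0550 ± 0.0181 (SD, n = 3). The processing peptidase subunits did not pass either. PMPCA had -0.0333, 0.000582 and -0.171, and PMPCB, the catalytic subunit, had 0.0554, 0.0137 and 0.0334.

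MFN2, a mitofusin that also tethers mitochondria to the endoplasmic reticulum, had 0.214, 0.146 and 0.200. Its mean was 0.187 ± 0.0364 (SD, n = 3), 1.54-fold for base 10 and 1.14-fold for base 2, with a 95% interval from 0.119 to 0.255 and a limma adjusted p of 0.0288. MFN1, the other mitofusin, had -0.00891, 0.000469 and 0.0542, and its 3 probes averaged from -0.0497 to 0.0799. MFN2 was above MFN1 on each array, by 0.223, 0.145 and 0.146, and their ranges did not overlap, a difference that was not tested. Without the 3 MFN symbols, 2 of 24 import genes rose and 4 fell, beside 8.16% and 5.75% of all genes.

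**Figure D3:**
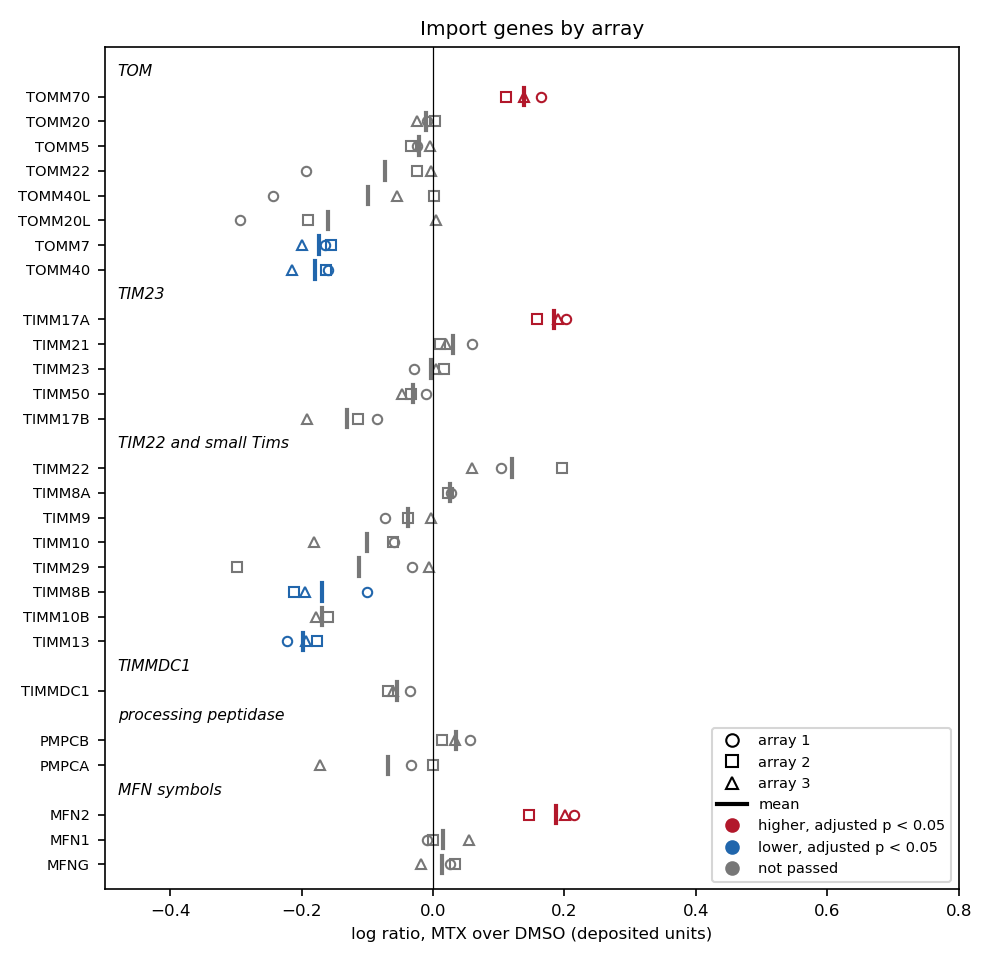
Log ratios of MTX over DMSO in deposited units (horizontal axis) for each import symbol tested, by complex, with 1 marker per array and a bar at the mean. TOMM70, TIMM17A and MFN2, in red, passed as higher, and TOMM40, TOMM7, TIMM8B and TIMM13, in blue, as lower.

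Of the 61 members, 14 rested on more than 1 probe, and in 9 of these the probe means had both signs. TOMM7 was the only called member with more than 1 probe, so the other 8 calls each rest on a single probe. Both signs were found in 6 of 9 such carriers and in 3 of 5 such import genes. All 9 called members had values on 3 arrays, while 12 members had values on 2.

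**Figure D4:**
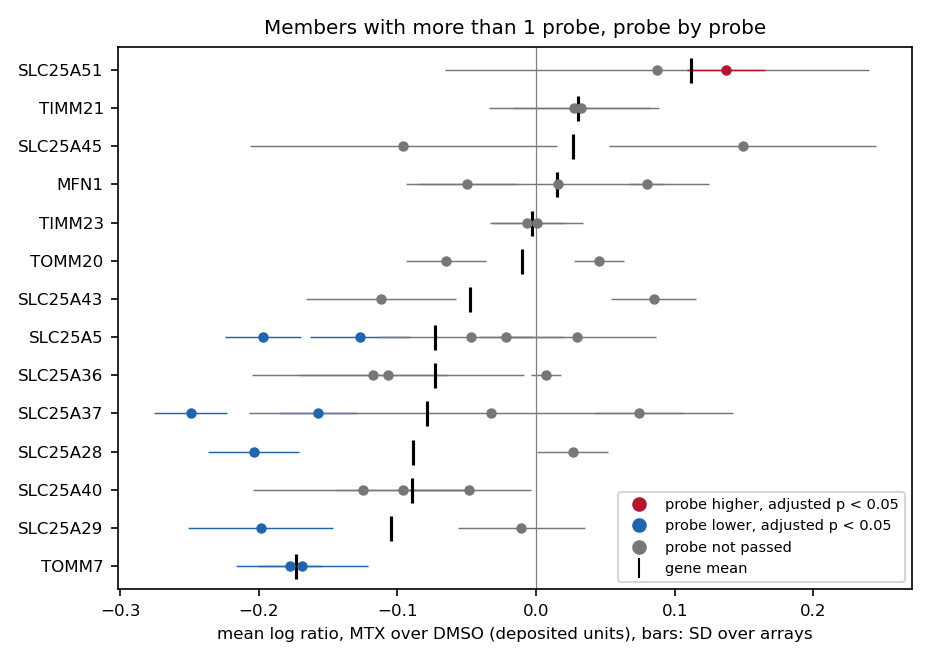
Mean log ratio of MTX over DMSO of each probe (horizontal axis, deposited units, bars for the SD over arrays) for the 14 members with more than 1 probe, with the gene mean as a black tick. Both probes of TOMM7 are lower, whereas SLC25A28, SLC25A37 and SLC25A5 join probes that passed as lower with probes on the other side of 0.

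Of a chosen list of 55 mitochondrial genes outside the symbol rule, 1 was higher and 4 lower. Together these were 9.09% of the list, beside 13.9% of all genes. The list held genes of import, folding and processing, other transporters, fusion and fission, and regulators of biogenesis. It does not stand for all mitochondrial genes. Among 27 further genes of import, folding and processing 0 rose and 3 fell. DNAJC15, a J protein of the TIM23 import motor, had -0.249, -0.195 and -0.218 (limma adjusted p = 0.0261). The matrix proteases LONP1 and CLPP averaged -0.152 ± 0.0526 and -0.149 ± 0.0533 (SD, n = 3, limma adjusted p = 0.0446 and 0.0462). The motor chaperone HSPA9 and the chaperonins HSPD1 and HSPE1 averaged 0.0392, 0.0203 and -0.00908 and did not pass. SAMM50, which inserts barrel proteins such as TOMM40 into the outer membrane, had -0.203, -0.250 and -0.0499 (limma adjusted p = 0.0758).

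Of 15 other transporters and channels 1 rose and 0 fell, beside 8.16% and 5.75% of all genes. MTCH2, an SLC25-like protein of the outer membrane, had 0.120, 0.135 and 0.155 (limma adjusted p = 0.0353). VDAC1, VDAC2 and VDAC3, the channels of the outer membrane, averaged 0.0488, 0.0409 and 0.0351, and the pyruvate carrier subunits MPC1 and MPC2 averaged 0.0874 and 0.0560. None of these 5 passed. Of 7 genes of fusion and fission OPA3 fell, with -0.159, -0.159 and -0.0790 (limma adjusted p = 0.0493). OPA1, the fusion GTPase of the inner membrane, averaged 0.0760 ± 0.0340 and DNM1L, the fission GTPase, 0.0107 ± 0.0167 (SD, n = 3). None of 6 regulators of mitochondrial biogenesis passed, namely ESRRA, GABPA, GABPB1, PPARGC1B, PPRC1 and TFAM, beside 13.9% of all genes. Of these 6, 0 had an unadjusted p under 0.05 in limma, beside 4336 of all 11741 genes. The regulators NRF1 and PPARGC1A were not among the genes tested.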

How the data were processed

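Total RNA of BEAS-2B cells was compared on 3 two-colour arrays. Per the labels and the series' design text, the authors labelled RNA with a FairPlay kit, scanned with GenePix, subtracted the local median background and normalised by LOWESS. The values deposited by the authors are log ratios whose base is not given in the sources used here. They are printed as deposited, and folds are given for both log10 and log2. Probes with values on at least 2 arrays and 1 symbol (16867 of 31615) were averaged per gene and array. Column medians were 0.00137, 0.00222 and 0.00194, and no centring was applied. Base and direction were not compared with scanner intensities, not used here.

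In R 4.3.3, limma 3.58.1 (lmFit, then eBayes) gave two-sided tests of gene means against 0, adjusted by Benjamini-Hochberg over 11741 genes. Intervals are 95%. The script was tested on simulated data. The number of arrays limits the precision. Members, lists and pairs were chosen with earlier results of these data known. Named were all called members, the 3 smallest p of each class and a set of central genes, with all other tested members described too. Alternatives changed probe selection and averaging, centring, scaling, array weights, spread model, position and arrays. Gene symbols came from the platform annotation, and all 61 were found in RefSeq. Figures used matplotlib 3.10.9.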

Additional observations from a re-analysis of the deposited data

How the results depend on the processing

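Testing the ratios against 0 already compared MTX with DMSO within each array, and no further pairing was labelled. Outside the fits that left out an array, 8 of the 9 called members kept their call in all 9 alternatives, and TOMM40 lost it with the local running median removed, at -0.149 (adjusted p = 0.0550, limma). For the 8 called members with 1 probe, however, the alternatives of probe selection and averaging reused the same values. Their means could not change there, so those alternatives do not test these calls. Without array 1, and likewise without array 2, none of the 9 kept its call. Leaving out 1 array gave between 0 and 4579 called genes, 0 and 5 carriers higher, and 0 and 7 lower. Import genes ran from 0 to 4 higher and from 0 to 6 lower. The chosen list of other mitochondrial genes ran from 0 to 7 higher and from 0 to 10 lower. The counts of 0 came without array 1 or array 2, and the highest without array 3, where 45.9% of 9971 genes, 12 of 25 carriers and 10 of 26 import genes were called. Over these 3 fits the carrier median ran from 0.00258 to 0.0161 and the import median from -0.0295 to -0.0233. Complete probes gave 2726 called genes, 3 carriers lower and 5 other genes higher. The first probe of each gene gave 3 other genes higher and an import median of -0.0550. Array weights, which were 0.784, 3.62 and 0.353 for arrays 1 to 3, gave 5784 called genes (49.3%), 8 carriers higher and 11 lower of 34, 4 import genes higher and 10 lower of 27, and 8 other genes higher and 13 lower. With array weights and without array 3 the called share of carriers exceeded that of import genes, the reverse of the fit on 3 equally weighted arrays. Signs turned for genes that did not pass. With the first probe SLC25A28, SLC25A37 and TIMM23 averaged 0.0264, 0.0740 and 0.000787. With array weights SLC25A13 and TIMM23 averaged -0.00586 and 0.00841. Leaving out an array gave MFN1 -0.00422 to 0.0273, SLC25A13 -0.0264 to 0.0747 and TIMM23 -0.0127 to 0.0105. The cause of these changes was not tested beyond the weights and probe sets named.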
